A study of Mus musculus with 16 samples.

Results

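The genes described here mark monocytes and the macrophages that gather in injured or scarred liver. They are the 10 genes Ccr2, Ly6c2, Lyz2, Cd68, Csf1r, Cx3cr1, Itgam, Trem2, Gpnmb and Lgals3, chosen by name and read from the rows of the count table that carry these symbols. The table had 48051 rows with a symbol, and 11 of them bore one of the 10 names, because Itgam had a second row with 3 reads in all libraries together, which was not tested. All 10 genes passed the filter on low counts, among 14346 tested genes.

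Total RNA was taken from liver of C57BL/6J mice and sequenced in 16 libraries, in 4 groups of 4. The groups were wild type on a control diet, wild type under the Gao-binge regimen (a chronic alcohol diet that ends with an alcohol gavage, called ethanol here), the hepatic TSC1 KO on the control diet, and the hepatic TSC1 KO under the same ethanol regimen. The time given for every sample was 10 days. TSC1 is part of the complex that holds the growth-controlling kinase mTORC1 in check. The labels do not give the driver of the deletion, the deleted part of the gene, the age of the mice or whether each library came from its own animal, so every p-value here reflects spread among libraries that may in part be technical. Libraries held 14.75 to 21.757 M reads. Tsc1 itself was read at 24.3 to 29.7 CPM (the read count scaled to library size) in wild-type controls, 15.8 to 19.8 in wild type after ethanol, 16.2 to 23.4 in knockout controls and 11.8 to 16.4 in knockout after ethanol. Its log2 fold change with the knockout was -0.52 ± 0.13 (SE, edgeR quasi-likelihood test, Benjamini-Hochberg over all tested genes, adjusted p = 0.0147) on the control diet and -0.36 ± 0.13 (edgeR adjusted p = 0.0386) after ethanol, and the groups overlapped after ethanol. The 5 hepatocyte transcripts checked (Alb, Apoa1, Ttr, Apob and Cps1) summed to 105828 to 118932 CPM in wild-type controls and 61783 to 66337 in knockout controls, and to 113592 to 132848 CPM in wild type and 54022 to 105374 in knockout after ethanol. The sums were thus lower in the knockout on both diets, without overlap. Of the 5, Alb, the albumin gene, was called lower in the knockout, at -1.23 ± 0.22 (edgeR adjusted p = 0.00175) on the control diet and -0.95 ± 0.22 (0.0030) after ethanol on the log2 scale, and the other 4 were not called with genotype. The part of this difference in the CPM levels of the 10 genes was not tested.

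Monocytes leave the blood through chemokine receptors such as CCR2, enter injured liver and mature into macrophages, which depend on the growth factor receptor CSF1R. Resident Kupffer cells are a separate, long-lived macrophage population of the liver sinusoids that also uses CSF1R. Macrophages around lipid-laden or scarred tissue carry TREM2, a lipid-sensing receptor that signals through the adaptor TYROBP, together with the lysosomal and membrane glycoprotein GPNMB, the lysosomal glycoprotein CD68 and the galactose-binding lectin galectin-3, the product of Lgals3. In bulk liver, a change in the number of such cells and a change in RNA per cell cannot be told apart.

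Promoters are shown for 3 of the genes: Cd68, the one gene called both for the knockout on the control diet and for ethanol in the knockout, Gpnmb, which had the largest fitted knockout difference after ethanol, and Trem2, which was almost absent from wild-type liver after ethanol. Each sequence is the 250 bases upstream of the gene's start in RefSeq, build GRCm38.p6, written 5′ to 3′ on the gene's own strand. They lie at chr11:69666171-69666420 on the minus strand for Cd68, chr17:48346151-48346400 on the plus strand for Trem2 and chr6:49036268-49036517 on the plus strand for Gpnmb. Capitals mark matches, on either strand, to TGANTCA, the site read by AP-1 factors, and to GAGGAA, the core of sites read by the myeloid factor PU.1.
Cd68: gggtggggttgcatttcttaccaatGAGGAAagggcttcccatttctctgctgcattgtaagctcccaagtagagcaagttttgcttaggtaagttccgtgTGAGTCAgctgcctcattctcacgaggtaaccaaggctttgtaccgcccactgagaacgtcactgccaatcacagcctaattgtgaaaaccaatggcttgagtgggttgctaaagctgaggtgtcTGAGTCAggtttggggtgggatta
Trem2: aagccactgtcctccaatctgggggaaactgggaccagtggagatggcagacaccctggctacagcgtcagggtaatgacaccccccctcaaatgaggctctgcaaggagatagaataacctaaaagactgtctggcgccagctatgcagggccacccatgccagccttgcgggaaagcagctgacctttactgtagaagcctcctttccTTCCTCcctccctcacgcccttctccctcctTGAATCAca
Gpnmb: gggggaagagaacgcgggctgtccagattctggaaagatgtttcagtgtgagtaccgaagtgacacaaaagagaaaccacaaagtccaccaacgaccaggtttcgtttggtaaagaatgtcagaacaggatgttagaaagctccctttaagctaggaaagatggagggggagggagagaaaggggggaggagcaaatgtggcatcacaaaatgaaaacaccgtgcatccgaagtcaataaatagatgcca
Of the 10 genes, 9 were matched to a promoter by symbol, all but Csf1r. The TGANTCA letters stood in 2 of the 9, Cd68 (first bases at -149 and -24 from the start) and Trem2 (-9), against 6.87% of 27025 promoters of the same length. GAGGAA stood in 4 of the 9, Cd68 (-225), Trem2 (-40), Ly6c2 (-108) and Itgam (-84 and -15), against 23.1% of all promoters. The letters CACGTG and CACATG, read by basic helix-loop-helix factors of the MiT/TFE family among others, were in 0 of the 9, against 6.05% and 12.2% of all promoters. The 2 motifs marked in capitals did not overlap each other in these windows, and a match is a description of letters only.

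Levels per length, as mean CPM per kilobase of exon, put Lyz2 far ahead of the others. In wild-type controls, Lyz2, the lysozyme of mouse myeloid cells, stood at 26.5 ± 5.77 CPM per kb (SD, n = 4). Csf1r at 4.78 ± 0.731 and Cd68 at 4.29 ± 1.92 CPM per kb followed and did not differ beyond their spread. Lgals3 came next at 1.97 ± 0.987 CPM per kb, and the other 6 lay between 0.0572 (Gpnmb) and 0.356 CPM per kb (Ccr2). In knockout liver after ethanol Cd68 at 17.3 ± 5.04 CPM per kb stood above Csf1r at 6.28 ± 2.73, and Gpnmb at 0.964 ± 1.18 CPM per kb was no longer the lowest. Itgam, Gpnmb, Trem2 and Ly6c2 rested on few reads: 24, 27, 49 and 39 over the 4 wild-type control libraries.

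**Figure D1:**
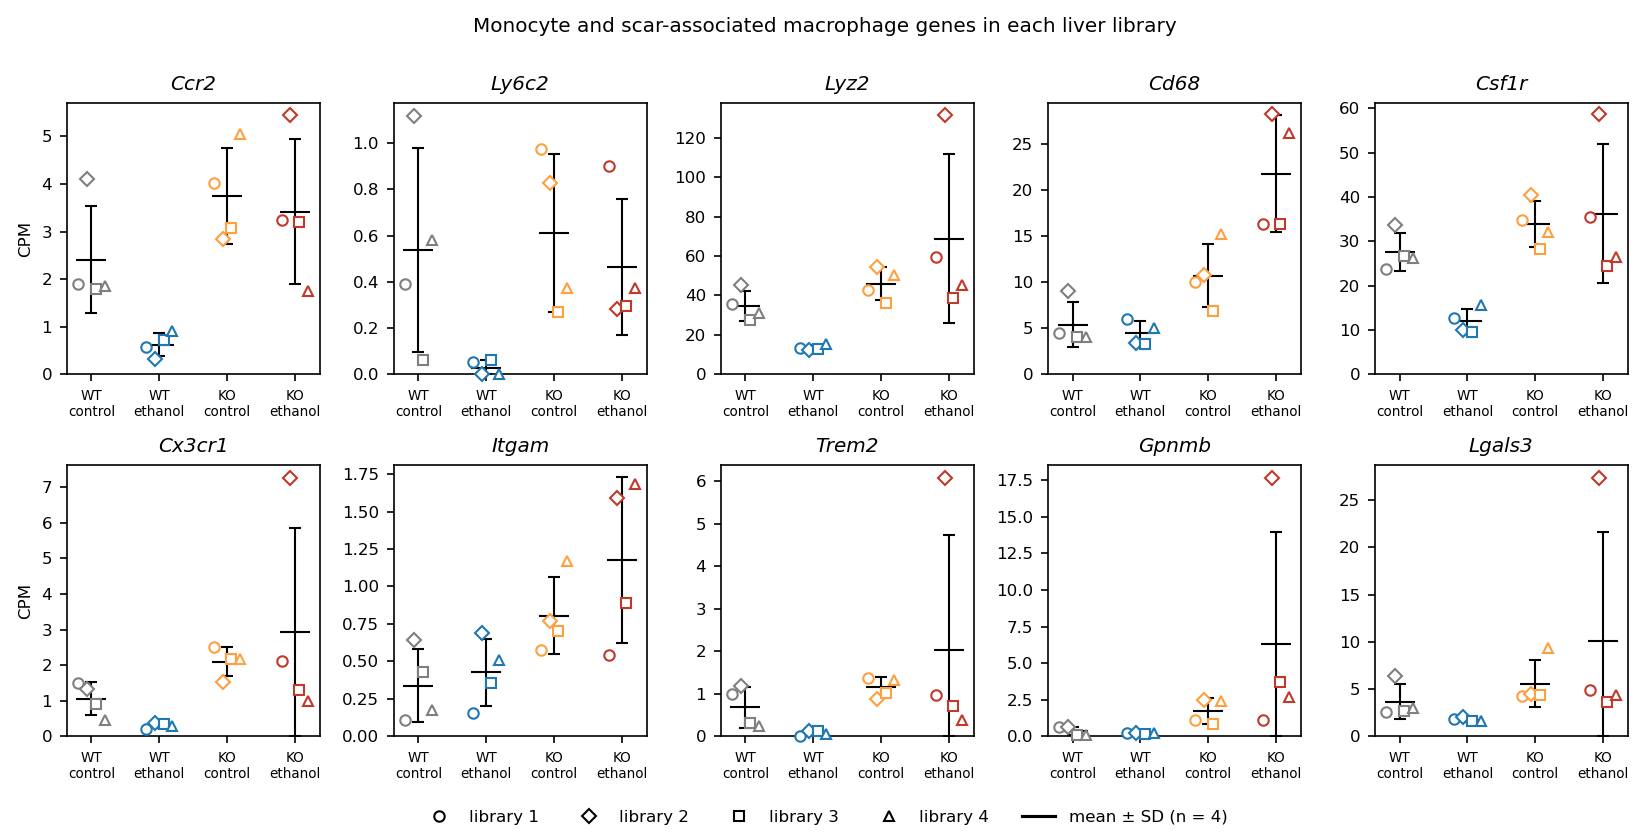
Level of each of the 10 genes in CPM (y axis, linear from 0, scaled per gene) in the 4 groups, with 1 symbol per library and bars for the mean ± SD of 4 libraries, cut off at 0 where the SD passes it. Wild type after ethanol is the lowest group for 9 of the 10 genes, and knockout ethanol library 2 (diamonds) stands above the rest of its group for 8 of the 10.

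The question with the broadest answer was what the knockout changed once the mice had received ethanol. After ethanol all 10 genes were higher in knockout than in wild-type liver at an edgeR adjusted p under 0.05, where 38.7% of all tested genes were called and 19.6% were called higher. The median log2 fold change of the 10 was 2.47, against -0.01 over all tested genes. For 9 of the 10 every knockout library lay above every wild-type library, a pattern that 15.6% of tested genes showed, and Itgam was the exception. The genes had been picked as markers by name, but with earlier results of these data known. DESeq2, another count model, called all 9 genes to which it gave an adjusted p, where 40.3% of tested genes were called, and voom, which weights libraries by their quality, called 9 of 10, where 33.6% were. In the authors' deposited table an adjusted p-value was given for 9 of the 10 and all 9 were under 0.05, against 30.4% of its genes.

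Among the receptors that mark circulating monocytes, Ccr2, which answers the chemokine CCL2, was read at 0.569, 0.313, 0.714 and 0.901 CPM in the wild-type libraries after ethanol. In knockout after ethanol Ccr2 was read at 3.25, 5.45, 3.21 and 1.75 CPM. The lowest of these was just under the lowest wild-type control (1.78 CPM) and still exceeded every ethanol-fed wild-type library. The log2 fold change was 2.44 ± 0.40 (SE, edgeR adjusted p = 0.00025). Ly6c2, whose product is the surface antigen of inflammatory mouse monocytes, had 2 reads in the 4 wild-type libraries after ethanol and 31 in the 4 knockout libraries. Scaled for depth, that is a ratio of 16.2 with an exact 95% interval of 4.11 to 139, which covers counting error only. The 4 knockout libraries stood at 0.904, 0.284, 0.297 and 0.375 CPM, and the wild-type libraries at 0.0517, 0, 0.0595 and 0 CPM, so the groups did not overlap. A count of 0 allows up to 0.188 and 0.169 CPM in those wild-type libraries. The fitted log2 fold change of Ly6c2 was 3.72 ± 0.98 (edgeR adjusted p = 0.00707) and depends on the small prior count that the fit adds. Cx3cr1, the fractalkine receptor of patrolling monocytes and of some tissue macrophages, stood at 0.207, 0.375, 0.357 and 0.282 CPM in wild type after ethanol. In knockout after ethanol it stood at 2.11, 7.27, 1.31 and 0.999 CPM, again without overlap, and the log2 fold change was 3.25 ± 0.60 (edgeR adjusted p = 0.000644), or 2.26 without knockout ethanol library 2. Itgam, the CD11b chain of the complement receptor CR3, was the weakest. Its libraries ran from 0.155 to 0.688 CPM in wild type and from 0.542 to 1.69 CPM in knockout after ethanol, which overlap, with a log2 fold change of 1.47 ± 0.49 (edgeR adjusted p = 0.0267). The Itgam call was lost on leaving out either of wild-type ethanol libraries 1 and 3 or either of knockout ethanol libraries 2 and 4, with adjusted p between 0.0553 and 0.0817.

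The pan-macrophage genes moved the same way. Csf1r, the receptor for CSF1 and IL-34, was read at 12.6, 9.94, 9.64 and 15.5 CPM in wild type after ethanol and at 35.5, 58.8, 24.3 and 26.5 CPM in knockout after ethanol. All 4 knockout libraries exceeded all 4 wild-type libraries, and the log2 fold change was 1.60 ± 0.24 (edgeR adjusted p = 0.000165). Lyz2 stood between 12.3 and 15.3 CPM in the 4 wild-type libraries after ethanol. The knockout libraries read 59.5, 131.8, 38.7 and 45.4 CPM, so the lowest of them was above every wild-type library, with a log2 fold change of 2.37 ± 0.32 (edgeR adjusted p = 8.27e-05), or 1.84 without knockout ethanol library 2. Cd68 was read at 6.00, 3.38, 3.33 and 5.01 CPM in wild type and at 16.3, 28.2, 16.3 and 26.2 CPM in knockout after ethanol. The groups did not overlap, and the log2 fold change was 2.29 ± 0.31 (edgeR adjusted p = 7.21e-05).

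Among the genes of lipid- and scar-associated macrophages, Gpnmb and Trem2 had the largest fitted differences of the 10, and Trem2, Gpnmb and Lgals3 were the 3 whose differences shrank most without knockout ethanol library 2. Trem2 had 5 reads in the 4 wild-type libraries after ethanol, 0, 0.125, 0.119 and 0.0563 CPM. In knockout after ethanol it was read at 0.964, 6.08, 0.713 and 0.375 CPM, a depth-scaled ratio of 29.4 with an exact 95% interval of 12.3 to 91.9 that covers counting error only. Every knockout library was above every wild-type library, but library 2 held most of the Trem2 reads. The log2 fold change was 4.70 ± 1.00 (edgeR adjusted p = 0.00201), and without knockout ethanol library 2 it was 3.13. Gpnmb was read at 0.207, 0.25, 0.178 and 0.225 CPM in wild type after ethanol and at 1.08, 17.7, 3.69 and 2.69 CPM in knockout after ethanol. The log2 fold change of Gpnmb was 4.83 ± 0.88 (edgeR adjusted p = 0.000738), and 3.49 without library 2. Lgals3 ran from 1.58 to 2.06 CPM in wild type after ethanol, while the knockout libraries read 4.94, 27.4, 3.69 and 4.37 CPM. The Lgals3 difference was 2.51 ± 0.61 on the log2 scale (edgeR adjusted p = 0.00547), and 1.28 without library 2. Trem2, Gpnmb and Lgals3 stayed called whichever of the 16 libraries was left out, with adjusted p of at most 0.0182.

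**Figure D2:**
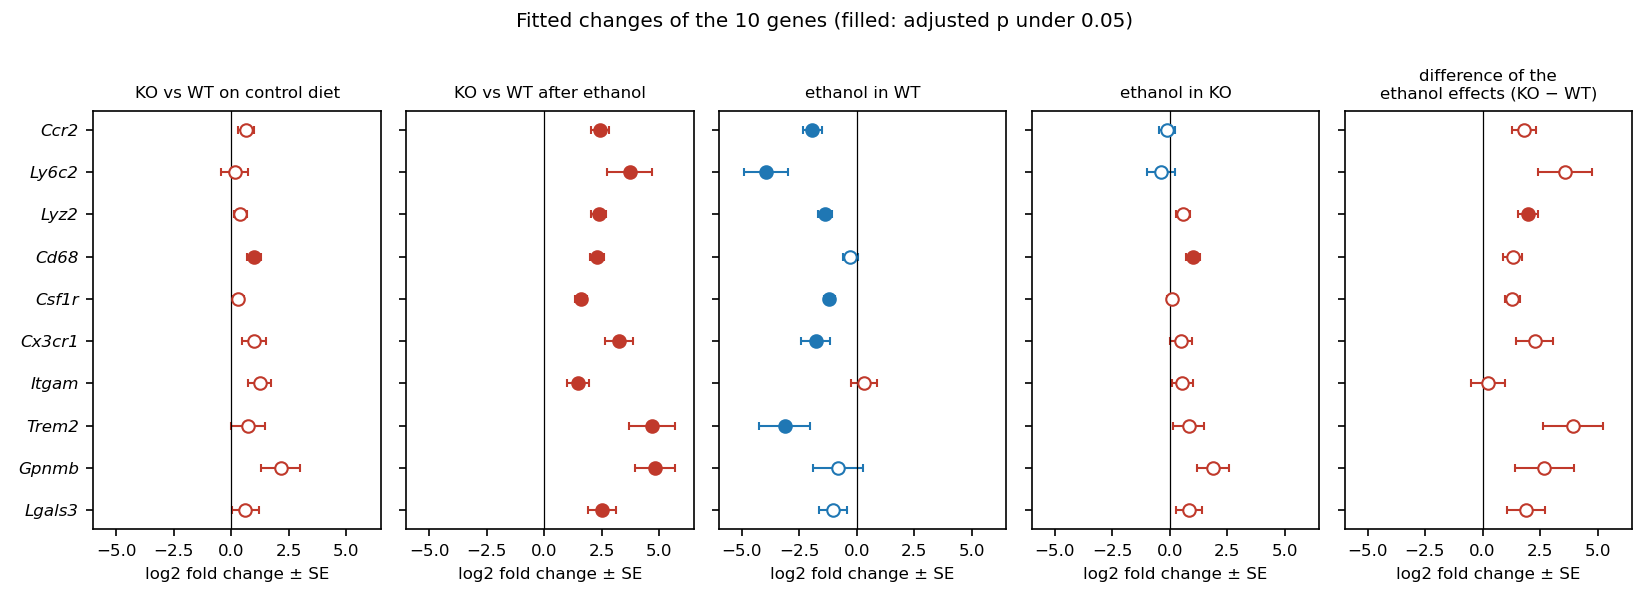
Fitted log2 fold change (x axis) with its SE for each of the 10 genes in 5 comparisons of the same 16 libraries, red above 0 and blue below, filled where the edgeR adjusted p is under 0.05. All 10 are filled after ethanol, 6 are filled below 0 for ethanol in wild type, and Cd68 alone is filled both for the knockout on control diet and for ethanol in the knockout.

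Ethanol lowered 6 of the 10 genes in wild-type liver, where 33.5% of tested genes were called and 15.9% were called lower. These were Ccr2, Ly6c2, Lyz2, Csf1r, Cx3cr1 and Trem2. The median log2 change of the 10 was -1.30, against -0.01 over all tested genes. This comparison uses the same ethanol-fed wild-type libraries as the one above, so their low levels enter both. For 7 of the 10 genes every ethanol library lay below every control library, against 15.3% of tested genes, the seventh being Lgals3. DESeq2 called 6 and voom 4, where 35.6% and 35.2% of tested genes were called, and the authors' deposited table had 6 of 9 under 0.05, against 28.5% of its genes. An edgeR fit of the 2 wild-type groups alone tested 5 of the 10 and called 4, all lower, where 31% of its tested genes were called. Lgals3 was among those 4. Some of the 6 genes were therefore tested only because the knockout libraries were in the fit.

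Csf1r was read at 23.7, 33.6, 26.8 and 26.3 CPM in wild-type controls, well above the 9.64 to 15.5 CPM after ethanol, a log2 change of -1.21 ± 0.24 (edgeR adjusted p = 0.00146). Lyz2 in the controls read 35.6, 45.1, 27.6 and 31.1 CPM and also did not overlap the ethanol libraries, with a log2 change of -1.38 ± 0.31 (edgeR adjusted p = 0.00359). Both genes gave far more reads than the other 4 and so carry the least counting error. Ccr2 stood at 1.89, 4.10, 1.78 and 1.86 CPM in wild-type controls, with library 2 apart from the rest, and its log2 change was -1.94 ± 0.41 (edgeR adjusted p = 0.00169). Without control library 2, the Ccr2 change was -1.55 and remained called. Ly6c2 was read at 0.390, 1.12, 0.0615 and 0.581 CPM in the controls. The third control held 1 read, as did 2 of the ethanol libraries, so the separation of the groups there is a matter of depth scaling. The depth-scaled ratio of controls to ethanol was 19.4, with an exact 95% interval of 5.03 to 166, and the fitted log2 change was -3.95 ± 0.95 (edgeR adjusted p = 0.00449). Cx3cr1 fell by 1.79 ± 0.63 on the log2 scale (edgeR adjusted p = 0.0382), from 1.5, 1.33, 0.922 and 0.465 CPM in the controls. Trem2 controls fell into a pair at 1.00 and 1.17 CPM and a pair at 0.307 and 0.232 CPM, and its log2 change was -3.13 ± 1.10 (edgeR adjusted p = 0.0387). With all 16 libraries the Cx3cr1 and Trem2 calls rested near the threshold. Without knockout ethanol library 2, which is not part of this contrast, they stood at -1.79 and -3.14 (edgeR adjusted p = 0.00251 and 0.00205). Leaving out control library 1 or 2, or any 1 of the 4 ethanol libraries, ended both, and leaving out control library 3 ended that of Cx3cr1, with adjusted p up to 0.0979.

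The other 4 genes did not pass in wild type in the fit of all 16 libraries. Cd68 was at 4.51, 9.01, 4.06 and 4.01 CPM in controls against 3.33 to 6.00 CPM after ethanol, overlapping, with a log2 change of -0.28 ± 0.32 (edgeR adjusted p = 0.521). Without control library 2 its change was 0.08. Gpnmb stood between 0.116 and 0.639 CPM in controls and between 0.178 and 0.25 CPM after ethanol, with a log2 change of -0.80 ± 1.09 (edgeR adjusted p = 0.601). The log2 change of Lgals3 was -1.04 ± 0.62 (edgeR adjusted p = 0.215), and that of Itgam was 0.30 ± 0.56 (edgeR adjusted p = 0.719). Lgals3 was called without knockout ethanol library 2, which is not part of this contrast (-1.05, edgeR adjusted p = 0.0198). It was also called in the edgeR fit of the wild-type groups alone (adjusted p = 0.0265). Without wild-type control library 2 it was at -0.63 and not called (edgeR adjusted p = 0.5). Whether Cd68 and Csf1r differed in their response was not tested as such, but their reads can be set against each other within a library.

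On the control diet the knockout raised 1 of the 10 genes, where 12.3% of tested genes were called and 7.4% were called higher. That gene was Cd68, read at 10.0, 10.8, 6.87 and 15.2 CPM in knockout controls. The lowest of them was under the highest wild-type control, 9.01 CPM, and the log2 fold change was 0.98 ± 0.31 (edgeR adjusted p = 0.0468). The call is fragile: it was lost in 9 of the 16 fits that left out 1 library, with values between 0.77 and 1.35. These left out wild-type control 1, 3 or 4, wild-type ethanol 2 or 4, knockout control 1, 2 or 4, or knockout ethanol 4. All 10 fitted differences were above 0, against 50.7% of tested genes, with a median of 0.69 against 0.01 over all tested genes. The libraries of the genotypes did not overlap for Cx3cr1 and Gpnmb, 2 of 10 where 12.3% of tested genes were as cleanly higher. Cx3cr1 stood at 2.52, 1.54, 2.16 and 2.18 CPM in knockout controls, with a log2 fold change of 0.98 ± 0.52 (edgeR adjusted p = 0.242). Gpnmb stood at 1.09, 2.49, 0.812 and 2.44 CPM in knockout controls, all above the highest wild-type control at 0.639 CPM, with a log2 fold change of 2.14 ± 0.84 (edgeR adjusted p = 0.113). Gpnmb was called when knockout ethanol library 2, which is not part of this contrast but widens the shared spread, was left out (adjusted p = 0.0114). Cx3cr1 was called in that fit too (edgeR adjusted p = 0.0463), which called 3 of the 10 and 14.9% of tested genes. In the authors' deposited table, Cd68 and Gpnmb had adjusted p-values of 0.0164 and 0.0245 for the same contrast, 2 of 9 genes with such a value, where 13.2% of genes in that table were under 0.05. DESeq2 called the same 2 genes, against 15.3% of tested genes, and voom called 7 of the 10, against 24.8%.
The remaining fitted differences were 0.63 ± 0.35 for Ccr2, 0.15 ± 0.59 for Ly6c2, 0.40 ± 0.30 for Lyz2, 0.30 ± 0.23 for Csf1r, 1.23 ± 0.52 for Itgam, 0.74 ± 0.74 for Trem2 and 0.61 ± 0.58 for Lgals3 on the log2 scale (edgeR adjusted p between 0.143 and 0.906).

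Within the knockout, ethanol raised 1 of the 10 genes, where 14.1% of tested genes were called and 7% were called higher. It was again Cd68, whose 4 ethanol libraries (16.3 to 28.2 CPM) all lay above the 4 knockout controls (6.87 to 15.2 CPM), as did 9.94% of tested genes. The log2 change was 1.02 ± 0.29 (edgeR adjusted p = 0.0307), and it was 0.87 with an adjusted p of 0.0808 without knockout ethanol library 2. The call was lost in 5 of the 16 fits that left out 1 library, namely knockout control 1, 2 or 3 or knockout ethanol 2 or 4. Gpnmb had a larger but less even change of 1.88 ± 0.68 (edgeR adjusted p = 0.0780), which was 0.54 without library 2. The authors' deposited table gave Gpnmb an adjusted p of 0.0341 and Cd68 one of 0.00774 here, 2 of 9 genes where 15.7% of its genes were under 0.05. DESeq2 called 2 genes, against 17.8% of tested genes, and voom 1, against 22.7%.

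For Lyz2, Lgals3, Trem2, Cx3cr1 and Csf1r the ethanol change in the knockout turned on library 2. Lyz2 stood at 42.6, 54.7, 35.9 and 50.5 CPM in knockout controls, and only libraries 1 and 2 after ethanol exceeded them, at 59.5 and 131.8 CPM. Its log2 change was 0.58 ± 0.30 (edgeR adjusted p = 0.209), and 0.06 without library 2. Lgals3 read 4.24, 4.44, 4.33 and 9.35 CPM in knockout controls, so that ethanol libraries 1 and 4 lay within the control range, library 3 (3.69 CPM) below it and library 2 (27.4 CPM) far above it. The log2 change of Lgals3 was 0.85 ± 0.56, and -0.37 without library 2. Trem2 read 1.38, 0.887, 1.03 and 1.33 CPM in knockout controls, and 2 of the ethanol libraries were below all of them, at 0.713 and 0.375 CPM. Its log2 change of 0.82 ± 0.68 became -0.75 without library 2, and that of Cx3cr1 went from 0.48 ± 0.48 to -0.51. For Csf1r the change was 0.10 ± 0.23 with all libraries and -0.24 without library 2. None of these values passed the test, with or without that library. The median over the 10 genes was 0.56 with all libraries, against 0.00 over all tested genes, and -0.22 without library 2. Ccr2 (-0.13 ± 0.34), Ly6c2 (-0.38 ± 0.60) and Itgam (0.54 ± 0.46) were not called either, and kept their sign without library 2, at -0.45, -0.20 and 0.36.

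**Figure D3:**
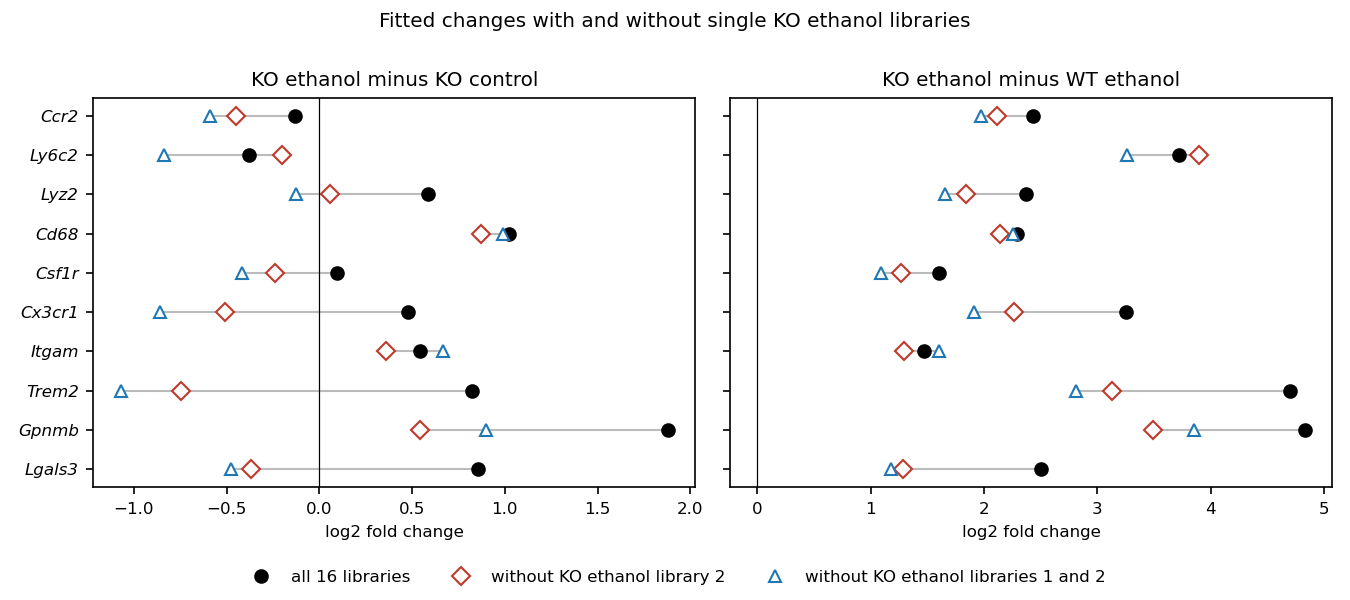
Fitted log2 fold change (x axis) of each gene for ethanol in the knockout (left) and for the knockout against wild type after ethanol (right), with all 16 libraries (black circles), without knockout ethanol library 2 (red diamonds) and without knockout ethanol libraries 1 and 2 (blue triangles), joined by a line over their range. On the left Csf1r, Cx3cr1, Trem2 and Lgals3 change sign without library 2, while on the right every value stays above 0.

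The difference between the ethanol changes of the genotypes was called for 1 of the 10 genes, where 1.81% of tested genes were called and 0.523% were called higher. It was Lyz2, whose ethanol change was 1.97 ± 0.43 higher in the knockout on the log2 scale (edgeR adjusted p = 0.0350). The call was lost in 10 of the 16 fits that left out 1 library, and over those 16 the value ran from 1.45 to 2.17 with an adjusted p of at most 0.0732. The 10 left out any of the 8 controls, of either genotype, or wild-type ethanol library 1 or 4. All 10 differences were above 0, against 50.1% of tested genes, and 8 of 10 had an unadjusted p under 0.05, as did 2731 of the 14346 tested genes. Csf1r at 1.30 ± 0.34 (edgeR adjusted p = 0.0588) and Ccr2 at 1.80 ± 0.53 (edgeR adjusted p = 0.0845) came nearest. DESeq2 called 5 of the 7 genes with an adjusted p, against 5.3% of tested genes, and voom 2 of 10, against 3.65%. Cd68 gave 1.31 ± 0.43 (edgeR adjusted p = 0.121), Ly6c2 3.57 ± 1.18 (adjusted p = 0.116) and Trem2 3.95 ± 1.30 (adjusted p = 0.120). Without knockout ethanol library 2 the Trem2 value was 2.39 (edgeR adjusted p = 0.151). Itgam gave 0.25 ± 0.74 (edgeR adjusted p = 0.889). For Csf1r, Ccr2, Ly6c2, Cx3cr1 and Trem2 a fall was called in wild type and no change in the knockout, but the difference between the 2 was not called.

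Ordering the 4 groups by mean CPM showed the same shape in another way. Wild type after ethanol was the lowest group for 9 of the 10 genes, and for Itgam it was the wild-type controls. Knockout after ethanol was the highest for 8, and knockout controls for Ccr2 and Ly6c2. For Csf1r, Cx3cr1, Trem2 and Lgals3 the top rank depended on knockout ethanol library 2. Without it their fitted log2 change with ethanol in the knockout was negative, at -0.24, -0.51, -0.75 and -0.37. The step from wild type after ethanol to the next group up was called for Ccr2, Ly6c2, Lyz2, Csf1r, Cx3cr1 and Trem2, and the steps above it were not called for any of these 6. For Itgam, Gpnmb and Lgals3 no single step between neighbours was called. Cd68 was the one gene with called steps from wild-type to knockout controls and from there to knockout after ethanol, while its lowest step, between the wild-type groups, was not. Against wild-type controls, knockout after ethanol was higher for 5 of the 10 genes where 39.2% of tested genes were called. These were Cd68 at 2.01 (edgeR adjusted p = 0.000139), Gpnmb at 4.02 (0.00127), Itgam at 1.77 (0.0110), Cx3cr1 at 1.46 (0.0318) and Lyz2 at 0.98 (0.0184) on the log2 scale. Without knockout ethanol library 2 the calls of Cx3cr1 (0.47, edgeR adjusted p = 0.317) and Lyz2 (0.46, 0.0551) were lost, Gpnmb was at 2.69 and stayed called (0.00127), and 3 of the 10 were called where 34.3% of tested genes were. The Cx3cr1 call was also lost without wild-type control library 3 or 4 (edgeR adjusted p = 0.0691 and 0.0878).

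Reads of each gene per 100 Csf1r reads of the same library compare the genes with a general macrophage transcript, as a description with no test. Cd68 gave 15.2 to 26.8 reads per 100 Csf1r reads in wild-type controls and 32.2 to 47.5 in wild type after ethanol, without overlap. It gave 24.3 to 47.4 in knockout controls and 46.0 to 99.1 in knockout after ethanol. Cd68 was therefore higher relative to Csf1r after ethanol in wild type, where its own level was not called changed and Csf1r had fallen. Lyz2 held 98.2 to 130.9 reads per 100 of Csf1r in wild type after ethanol and 159.4 to 224.3 in knockout after ethanol, above all 12 other libraries, of which the highest was a knockout control at 157.5. Gpnmb gave 0.442 to 2.59 in wild-type controls, 1.45 to 2.52 in wild type after ethanol, 2.87 to 7.62 in knockout controls and 3.06 to 30.0 in knockout after ethanol. All 8 knockout libraries were above all 8 wild-type libraries on this ratio, which no other gene here showed. The gap was narrow and rested on few reads. Wild-type control 1 at 2.59 and knockout control 3 at 2.87 held 11 and 15 Gpnmb reads. Trem2 gave 0.883 to 4.24 reads per 100 Csf1r reads in wild-type controls, 0 to 1.26 in wild type after ethanol, which overlap, and 1.42 to 10.3 in knockout after ethanol. Lgals3 overlapped across all 4 groups on this ratio, at 10.1 to 20.8 in wild type and 10.9 to 46.6 in knockout libraries.

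**Figure D4:**
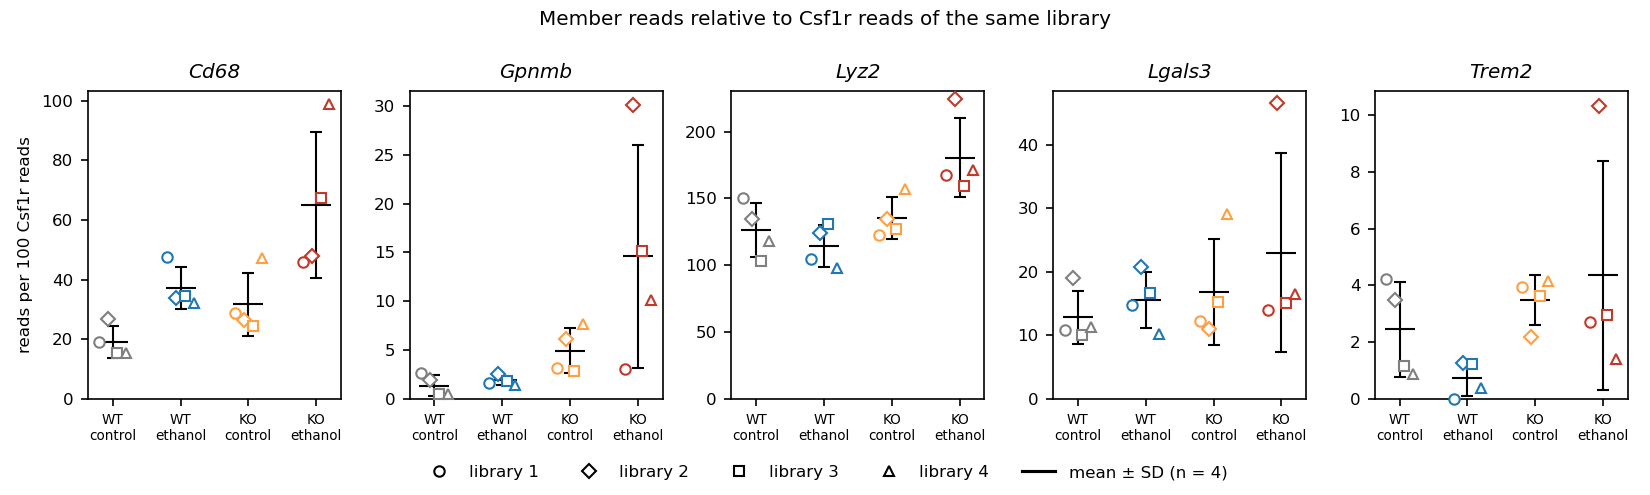
Reads of Cd68, Gpnmb, Lyz2, Lgals3 and Trem2 per 100 Csf1r reads of the same library (y axis, linear from 0, scaled per gene) in the 4 groups, with 1 symbol per library and bars for the mean ± SD of 4 libraries, cut off at 0 where the SD passes it. The 8 knockout libraries sit above the 8 wild-type libraries for Gpnmb, and Cd68 lies above the wild-type controls in all 4 ethanol-fed wild-type libraries.

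Library 2 stood apart in 2 groups. In knockout after ethanol it was the highest library for 8 of the 10 genes, and in the wild-type controls another library numbered 2 was the highest for 9 of the 10. Averaged over the 10 genes as log2(CPM + 0.5) against the wild-type controls, knockout ethanol library 2 stood at 1.98 and the others of its group at 0.67, 0.53 and 0.55. The wild-type controls stood at -0.01, 0.56, -0.27 and -0.27, the knockout controls between 0.34 and 0.89, and the ethanol-fed wild type between -0.82 and -0.66. By that average the 4 ethanol-fed wild-type libraries were the lowest of the 16. The sum of the cholangiocyte transcripts (Krt19, Krt7, Epcam, Sox9, Cftr, Cldn4 and Spp1) was also highest in knockout ethanol library 2. It was 842.8 CPM there, against 180.2 to 385.9 in the others of the group. Spp1, which scar-associated macrophages also make, dominated the sum in library 2. It gave 13565 reads there, against 495 for Sox9, the next highest of the list. The same sum was 279.5 to 530.4 CPM in knockout controls and 43.3 to 79.0 CPM in all 8 wild-type libraries. Of these 7 genes, 6 were called higher in the knockout after ethanol and 4 on the control diet. Of all tested genes, 19.6% and 7.4% were called higher in these contrasts. Galectin-3 is made by epithelial cells as well as macrophages, and the part of bile duct cells in the Lgals3 values was not tested. Without library 2, the contrast of knockout and wild type after ethanol kept 9 of its 10 calls and lost that of Itgam (1.29, edgeR adjusted p = 0.0664).

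The ligands and partners of these receptors were looked at whatever their values, and 8 of 12 could be tested. After ethanol 3 of the 8 were higher in the knockout and 0 lower, where 38.7% of all tested genes were called and 19.6% called higher: Ccl2, the ligand of CCR2, at 2.81 ± 0.60 (edgeR adjusted p = 0.00181), Tyrobp, the adaptor of TREM2, at 1.65 ± 0.33 (0.00111), and Itgb2, the partner chain of CD11b, at 1.19 ± 0.29 (0.00385). Csf1, the main ligand of CSF1R, was not called, at 0.24 ± 0.39 (edgeR adjusted p = 0.659), nor was its other ligand Il34 at -0.40 ± 0.39 (0.440). On the control diet Cx3cl1, the ligand of CX3CR1, was higher in the knockout at 1.46 ± 0.32 (edgeR adjusted p = 0.00717), and so was Icam1, an adhesion ligand of CD11b, at 1.22 ± 0.34 (0.0284). Ethanol in wild type lowered Tyrobp by -1.05 ± 0.33 (edgeR adjusted p = 0.0214) and raised Icam1 by 1.03 ± 0.34 (0.0286) and C3, whose fragment binds CR3, by 0.62 ± 0.22 (0.0342). Ccl7, Ccl8, Ccl12 and the second adaptor Hcst gave 3 to 79 reads in all 16 libraries together and were not tested.

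Other monocyte and macrophage genes, listed with earlier results known, mostly went the same way. After ethanol 21 of 30 tested were called higher in the knockout and 0 called lower, where 19.6% of all tested genes were called higher. The median log2 fold change was 1.19 against -0.01 over all tested genes. Among the 21 were Mpeg1, the pore-forming perforin-2 of macrophages, at 1.47 ± 0.19 (edgeR adjusted p = 4.83e-05), and Pld4 at 1.91 ± 0.22 (1.6e-05). Lst1, a leukocyte membrane protein, was another, at 3.36 ± 0.46 (edgeR adjusted p = 5.66e-05). Ethanol in wild type lowered 11 of the 30 and raised 2, where 33.5% of all tested genes were called and 15.9% called lower. Mpeg1 was at -1.33 ± 0.19, Pld4 at -1.45 ± 0.22 and Lst1 at -2.93 ± 0.47. Cd14, the endotoxin co-receptor, was one of the 2 that rose, at 2.71 ± 0.74 (edgeR adjusted p = 0.0122). On the control diet 1 of 30 was called, Irf8, a monocyte transcription factor, at 0.96 ± 0.25 (edgeR adjusted p = 0.0215), and ethanol in the knockout raised 2. Of all tested genes, 12.3% and 14.1% were called in these comparisons. The difference between the ethanol changes was called for 3 of the 30, all higher in the knockout, where 1.81% of all tested genes were called.

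Of 14 Kupffer cell genes, 9 were called higher in the knockout after ethanol and 0 called lower, at a median of 1.00. Of all tested genes, 19.6% were called higher there. Id3 and Cd163 were not called but gave fewer reads in that knockout group, 1836 and 565 against 4155 and 904 in wild type. Ethanol in wild type lowered 6 of the 14, with 0 called higher, where 15.9% of all tested genes were called lower. Clec4f, a lectin of mouse Kupffer cells, fell by 0.95 ± 0.19 in wild type with ethanol on the log2 scale (edgeR adjusted p = 0.00143). It was 0.99 ± 0.19 higher in the knockout after ethanol (0.000995). Vsig4, a complement receptor, stood at 1.61 ± 0.21 (4.62e-05) and Folr2 at 2.32 ± 0.41 (0.000485) in the latter contrast. Summed, the 14 genes gave 468.2 to 596.1 CPM in wild-type controls, 293.6 to 439.1 in wild type after ethanol, 472.2 to 608.2 in knockout controls and 443.5 to 684.2 in knockout after ethanol. The sums of wild type after ethanol thus lay below those of the other 3 groups, as the Csf1r and Lyz2 levels did (9.64 to 15.5 and 12.3 to 15.3 CPM). Slc40a1, Nr1h3 and Id3 weighed most in them, at means of 145, 83.5 and 50.8 CPM, ahead of Clec4f at 49.7 and Vsig4 at 15.1. Of the first 3, Nr1h3 was called lower with ethanol in wild type (-0.76 ± 0.10, edgeR adjusted p = 4.72e-05), and Slc40a1 and Id3 were not called. Which cells carried these reads was not tested. The share of Kupffer cells in the values of the 10 genes was not tested.

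Lipid- and scar-associated macrophage genes beyond the 10 were more mixed. After ethanol 11 of 20 were called higher and 3 lower in the knockout, and on the control diet 6 were called higher and 0 lower. Of all tested genes, 38.7% and 12.3% were called in these contrasts. Itgax, the CD11c chain, followed Trem2 in direction, at 2.79 ± 0.62 (edgeR adjusted p = 0.0025) after ethanol and -2.17 ± 0.64 (0.0155) for ethanol in wild type. Spp1, which bile duct cells and scar-associated macrophages both make, was higher in the knockout on either diet, at 2.62 ± 0.42 (edgeR adjusted p = 0.00115) and 3.70 ± 0.44 (3.33e-05). Anxa5, an annexin, was at 1.23 ± 0.13 and 1.47 ± 0.13 in those contrasts, and the lysosomal protease gene Ctsb at 0.65 ± 0.12 and 1.13 ± 0.12. The 3 that were lower in the knockout after ethanol were Atp6v0d2, a proton pump subunit, at -1.79 ± 0.47 (edgeR adjusted p = 0.00749), Fabp4, a fatty acid binding protein, at -1.01 ± 0.22 (0.00188), and Plin2, a lipid droplet coat protein, at -0.78 ± 0.25 (0.0197). Ethanol in wild type had raised these 3, at 3.03, 2.01 and 0.98 on the log2 scale (edgeR adjusted p of at most 0.00616). Ethanol raised 6 and lowered 4 of the 20 in wild type and raised 7 and lowered 1 in the knockout. Of all tested genes, 33.5% and 14.1% were called for ethanol in wild type and in the knockout. Hepatocytes also express several of these genes, and the 20 summed to between 18032 and 26165 CPM in all libraries.

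Gpnmb is also known as a target of the MiT/TFE transcription factors, which mTORC1 regulates. Of 24 other genes of that program 21 were tested. In the knockout 9 were called higher and 1 lower on the control diet, with 10 and 2 after ethanol. Of all tested genes, 12.3% and 38.7% were called in these contrasts. Rragd, a GTPase gene of the mTORC1 pathway, was at 4.26 ± 0.21 (edgeR adjusted p = 1.67e-09) and 4.44 ± 0.21 (6.66e-10) in these contrasts on the log2 scale. Dct, a pigment enzyme gene of melanocytes, was the 1 lower on the control diet, at -4.25 ± 0.44 (edgeR adjusted p = 1.46e-05). After ethanol Dct at -3.45 ± 0.51 (edgeR adjusted p = 0.000106) and Atp6v1h, a proton pump subunit gene, at -0.57 ± 0.08 (9.44e-05) were the 2 lower. Ethanol raised 5 and lowered 3 of the 21 in wild type, and raised 3 and lowered 1 in the knockout. The shares of all tested genes called were 33.5% and 14.1%. Which cells of the liver carried the Gpnmb reads was not tested.

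Markers of other leukocytes were scarce. Of 11 neutrophil genes 3 could be tested. The receptor gene Csf3r was the 1 called, higher in the knockout after ethanol, where 38.7% of all tested genes were called. Ly6g gave 4 reads, Camp 7 and Mpo 1 in all 16 libraries together, and the sums of the 11 genes overlapped in all 4 groups (1.45 to 10.4 CPM). Of 7 dendritic cell genes 4 were tested, and Itgax was the 1 called after ethanol, against the same 38.7% of all tested genes. The sums of the 7 genes lay between 7.09 and 15.7 CPM in all libraries. Of 12 lymphocyte and NK cell genes 6 were tested. Of these 2 were lowered by ethanol in wild type and 1 was called lower in the knockout on the control diet. Of all tested genes, 33.5% and 12.3% were called in these comparisons. The lymphocyte sums were 2.64 to 3.15 CPM in wild type after ethanol and 5.23 to 9.08 in wild-type controls. They were 2.93 to 4.88 CPM in knockout after ethanol and 3.57 to 7.63 in knockout controls. With ethanol in wild type, where 6 of the 10 macrophage genes fell, 3 of 5 endothelial genes were called higher. So were 2 of 5 stellate cell genes and 1 of 5 hepatocyte genes. Of all tested genes, 33.5% were called in either direction there and 15.9% were called lower.

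Some of the 10 genes share sequence with neighbours, which bears on how their reads were assigned. Coordinates are those of GENCODE M21 on GRCm38, which need not be the release used for counting. Ly6c2 (chr15:75108158-75111970, minus strand) shares 7.41% of its 75-base windows with Ly6c1, a near copy that endothelial cells also make. Ly6c1 went the other way with ethanol, rising by 1.91 ± 0.49 in wild type (edgeR adjusted p = 0.00696) and by 2.21 ± 0.49 in the knockout (0.00762), and it was not called with genotype. Lyz2 (chr10:117277331-117282321, minus strand) shares 5.96% of its windows with Lyz1, the lysozyme of Paneth cells, which gave 25 reads in all libraries together. Itgam (chr7:128062640-128118491, plus strand) overlaps the gene model Gm49368 on the same strand and shares 71.7% of its windows with it, so its reads may have been dropped or split and its level is uncertain. Csf1r (chr18:61100598-61132149, plus strand) and Cx3cr1 (chr9:119901616-120069879, minus strand) overlap exons of Hmgxb3 and Gm33858 on the other strand, and the strand setting of the counting is not given in the sources used here. Ccr2 lies at chr9:124101950-124113557 on the plus strand. Cd68 (chr11:69664213-69666153, minus strand), Trem2 (chr17:48346401-48354147, plus strand), Gpnmb (chr6:49036546-49070929, plus strand) and Lgals3 (chr14:47367751-47386160, plus strand) share 0 windows with other genes.

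The genes whose pattern was most like that of the 10 were found by the root mean square difference of log2(CPM + 0.5), centred on each gene's mean over the 16 libraries, among 11567 genes with a mean of at least 1 CPM. Nearest to the mean of the 10 were Myof at 0.17, Iqgap1 at 0.20, Sirpa at 0.22, Myo1f and Apbb1ip at 0.24, Cxcl16 and Basp1 at 0.26 and Cyba at 0.27, where the median gene stood at 0.80. Within the 10, Cx3cr1 and Trem2 were the closest pair at 0.20, followed by Lyz2 and Csf1r at 0.30. For Csf1r the nearest other genes were Pilra and Fyb, both at 0.19, for Lyz2 Clec7a at 0.22 and Cybb at 0.23, and for Ccr2 Lst1 and Myo1f, both at 0.29. Trem2 had Tmsb10 at 0.27 and Itgax at 0.30, Cx3cr1 had Myof at 0.29 and Pamr1 at 0.30, and Lgals3 had Fam129a at 0.35 and Tmsb10 at 0.36. Cd68 had no gene nearer than Ttc39aos1 at 0.38 and Cd44 at 0.40, and Gpnmb none nearer than Rcan2 at 0.48 and S100a11 at 0.49. Ly6c2 (Nampt and Gatm at 0.30) and Itgam (Impact at 0.25 and Slc3a1 at 0.26) have so few reads that the added 0.5 CPM flattens their pattern. All distances are over the same 16 libraries and share their depth.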

How the data were processed

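RNA from 16 mouse liver libraries was sequenced as single 75 bp reads after polyA selection with a stranded kit, per the labels' protocols. The submitters' processing notes name Trimmomatic 0.36, HISAT2 2.1.0, HTSeq and the build GRCm38. The sources used here give no HTSeq version, strand or overlap option, and no annotation release. The deposited table holds raw read counts per gene. Of its 55487 rows, 7436 without a symbol (0.227 to 0.479% of a library's counts) were left out. The authors also deposited log2 fold changes and adjusted p-values for 4 comparisons, per the file headers, signed opposite to those printed here. Lgals3 has no adjusted p there. Only values credited to that table in the text come from it.

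Tests ran on the deposited counts with edgeR 4.0.16 in R 4.3.3 (filterByExpr on the 4 groups, TMM scaling, robust glmQLFit and glmQLFTest, 1 mean per group over all 16 libraries, 12 residual degrees of freedom). The threshold for a call was an adjusted p under 0.05 (Benjamini-Hochberg, 14346 genes), and every single adjusted p is from this test unless another is named. CPM uses TMM-adjusted library sizes. Alternatives were RLE scaling, no filter, DESeq2 1.42.0, voom with sample quality weights (limma 3.58.1), fits of 2 groups only, a replicate block, and fits without single or paired libraries. The edgeR fit was tested on simulated data. Intervals on counts are exact and cover counting error only. No 2 libraries of a group agreed within sampling noise. The 10 genes and all 13 comparison lists were chosen with earlier results of these data known. From each list, the genes eligible to be named in a comparison were up to 3 called ones per direction, by p, and up to 2 uncalled ones, by mean CPM, with all ligands, partners and near copies. A few genes of the lists, and what rests on them, are not reported here. Promoter letters are from RefSeq (GRCm38.p6), windows of shared sequence from GENCODE M21.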

Additional observations from a re-analysis of the deposited data

Results flagged for a closer look

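In 40 sets of 4 libraries (10 genes in 4 groups), 8 held a library whose gap to the next was too large a part of the group's range by Dixon's test at 95%, where chance gives about 5% of sets. In knockout after ethanol, library 2 was set apart for Trem2 (6.08 CPM, the next library 0.964), Gpnmb (17.7 CPM, next 3.69) and Lgals3 (27.4 CPM, next 4.94), and library 1 for Ly6c2 (0.904 CPM, next 0.375). In wild-type controls, library 2 was set apart for Ccr2 (4.10 CPM, next 1.89), Cd68 (9.01 CPM, next 4.51) and Lgals3 (6.40 CPM, next 2.96). Among knockout controls, library 4 was set apart for Lgals3 (9.35 CPM, next 4.44). The 8 sets share libraries, so they are not independent of each other. The ethanol change of Lyz2 differed between genotypes by 1.97 on the log2 scale in the edgeR interaction test (adjusted p = 0.0350).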

How the results depend on the processing

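Scaling by RLE left all 50 gene values (10 genes in 5 comparisons) on their side of the threshold and in their direction. For the knockout after ethanol 8 to 10 of the 10 genes were called under every alternative run, and 9 to 10 when 1 library was left out. The fit of 2 groups alone called 8 of the 8 that it tested. Of all tested genes, 17.1 to 40.3% were called in these runs. Without 1 library the number called was 4 to 7 for ethanol in wild type (6 with all), 0 to 3 for the knockout on the control diet (1 with all), 0 to 2 for ethanol in the knockout (1 with all) and 0 to 2 for the difference between the ethanol changes (1 with all). Of all tested genes, 26.7 to 36%, 7.48 to 14.9%, 7.63 to 15.6% and 0.363 to 3.39% were called, in that order. Without a filter on low counts 0 were called in each of the last 3 comparisons, and 4 for ethanol in wild type. The shares of all tested genes called fell as well, to 4.83%, 5.27% and 0.705% in those 3, and to 14.6% for ethanol in wild type.

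On the control diet DESeq2 called 2 genes, voom 7, and the fit with a replicate block 3, where 15.3%, 24.8% and 12.4% of all tested genes were called (12.3% in edgeR with all libraries). The number was 3 without knockout ethanol libraries 1 and 2, and 6 without wild-type control library 2 and knockout ethanol library 2, an alternative chosen after seeing the data, with 14.9% of all tested genes called in each. For ethanol in the knockout DESeq2 called 2, and 0 were called without knockout ethanol libraries 1 and 2, against 17.8% and 13.1% of all tested genes. For the difference between the ethanol changes DESeq2 called 5, voom 2 and the replicate block 2, against 5.3%, 3.65% and 1.78%. With 2 groups alone, Cd68 on the control diet had an adjusted p of 0.0512 and Gpnmb 0.0204. Lgals3 after ethanol was lost under voom (1.48, adjusted p = 0.0552).

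Whether the replicate numbers of the labels pair the libraries was not settled. The 24 correlations of same-numbered libraries' deviations ran from -0.168 to 0.477, and 9 were over 0.1. Libraries with different numbers were not compared, so these values cannot tell pairing from its absence. The block added Gpnmb (adjusted p = 0.0446) and Itgam (0.0473) on the control diet and Csf1r (0.0479) for the difference between the ethanol changes, and ended no call.

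Values that changed sign were never called. For ethanol in the knockout under voom these were Csf1r (-0.22), Cx3cr1 (-0.36), Trem2 (-0.53) and Lgals3 (-0.15). Without knockout ethanol libraries 1 and 2 they were Lyz2 (-0.13), Csf1r (-0.42), Cx3cr1 (-0.86), Trem2 (-1.07) and Lgals3 (-0.48). Without wild-type control library 2 and knockout ethanol library 2 they were Csf1r (-0.23), Cx3cr1 (-0.50), Trem2 (-0.73) and Lgals3 (-0.36), with Cd68 for ethanol in wild type at 0.088 and Itgam for the difference between ethanol changes at -0.45. Under voom Gpnmb for ethanol in wild type was at 0.11 and Itgam for that difference at -0.14. Leaving out 1 library moved Ly6c2 on the control diet between -0.21 and 0.79, Cd68 between -0.47 and 0.083 and Itgam between -0.017 and 0.82 for ethanol in wild type, and Itgam between -0.28 and 0.57 for the difference. For ethanol in the knockout it moved Ccr2 between -0.45 and 0.087, Csf1r between -0.24 and 0.25, Cx3cr1 between -0.51 and 0.76, Trem2 between -0.75 and 1.16 and Lgals3 between -0.37 and 1.22. The cause of these changes was not tested. Low depth limits Ly6c2, Trem2, Itgam and Gpnmb, whose groups held as few as 2, 5, 24 and 15 reads.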
